A study of Mus musculus with 45 samples.

Results

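The genes described are Myc, which encodes a transcription factor, and genes whose products make, modify, cut and package ribosomal RNA in the nucleolus. The list held 40 mouse symbols, of which 39 matched 1 gene each among the 37991 genes counted, and Noc2l was not analysed here. The list was drawn up with measured values of these libraries in view, and which values were used is not recorded. Counts and medians over the list are therefore descriptions and no independent support for a shared direction. The 39 genes were 1 transcription factor, 2 subunits of RNA polymerase I, 7 genes of small nucleolar ribonucleoproteins, 12 small subunit factors, 13 large subunit factors and 4 nucleolar genes with several roles. All 39 passed the filter on low counts, a CPM (the counts of a gene scaled to the library total) of 1 or more in 2 or more of the 45 libraries, as did 13851 genes in all.

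The cells were fibroblasts in primary culture from C57BL/6 mouse embryos (MEFs), which make connective tissue, either wild type (WT) or without p53 (p53-/-, written p53KO below). The gene lost encodes a transcription factor that arrests or kills damaged cells. All cultures were kept in low serum overnight, and then received IL-1b or TNF, both inflammatory cytokines, at 10 ng/ml, or LPS, a bacterial cell wall component, at 100 ng/ml. Poly(A) RNA was sequenced at 0, 0.5, 1, 3 and 8 h, and each stimulus had its own 0 h libraries, giving 30 groups. Each WT group held 1 library and each p53KO group held 2, named KO-1 and KO-2, so 15 libraries were WT and 30 were p53KO. The series text calls the p53KO pairs biological replicates and the WT cells littermate controls, and neither the embryos behind each culture nor the p53 allele are given. P-values thus measure the spread between these libraries. In the fit over all 30 groups, WT groups of 1 library add nothing to that spread, which comes from the p53KO pairs. No library was collected at a later time without a stimulus, so time in culture and stimulus cannot be told apart. In bulk RNA, a change in the number of cells that express a gene and a change in RNA per cell cannot be told apart either.

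Libraries held 5619870 to 15355994 counts assigned to genes, with a median of 9347770. Trp53, which encodes p53, stood at 159 to 296 CPM in WT, 53 to 88.6 in KO-1 and 54.8 to 86.1 in KO-2, so every p53KO library lay below every WT library. All 10 fibroblast markers passed the filter, with Col1a1 at 8670 to 13400 CPM. The 8 macrophage markers also all passed, and their summed level was 379 to 395 CPM in WT and 273 to 344 CPM in p53KO at 0 h, 523 to 548 and 324 to 431 CPM at 3 h, and 462 to 502 and 333 to 451 CPM at 8 h. The sum thus differed by time and by genotype, as the genes of the list did, and its part in their results was not tested. Muscle markers, 2 of 5 passing and Des the main one, summed to 32.5 to 38.2 CPM in WT and 102 to 127 CPM in p53KO at 0 h, 42.2 to 49.4 and 133 to 157 CPM at 3 h, and 27.3 to 34.2 and 84.1 to 135 CPM at 8 h. Epithelial markers, 5 of 6 passing, summed to 7.94 to 9.28 CPM in WT and 27.1 to 30 CPM in p53KO at 0 h, 9 to 10.6 and 34.3 to 51.2 CPM at 3 h, and 6.31 to 12.3 and 28.1 to 34.3 CPM at 8 h. Over all libraries Krt18 ran from 3.47 to 36.3 CPM and Krt8 from 0.908 to 11.6 CPM, while Epcam was at most 0.744 CPM. Neural markers, 5 of 6 passing and mostly Nes and Tubb3, summed to 171 to 191 CPM in WT and 228 to 284 CPM in p53KO at 0 h, 340 to 346 and 434 to 522 CPM at 3 h, and 194 to 247 and 263 to 389 CPM at 8 h. Endothelial markers, 6 of 6 passing, summed to 13.6 to 16.7 CPM in WT and 20.1 to 23.5 CPM in p53KO at 0 h, 14.7 to 17.3 and 20.8 to 25.9 CPM at 3 h, and 10.6 to 15.8 and 12.9 to 22.7 CPM at 8 h. In p53KO cells the muscle, epithelial and neural sums at 3 h thus lay above their 0 h ranges, as the genes of the list did, and the part of these lists in the results was not tested either. The erythroid genes Hba-a1, Hbb-bs and Hbb-bt had no count in any library. In 4 libraries gene levels, relative to their mean, tracked transcript length over 9561 genes more than elsewhere. Spearman's rho across genes was -0.603 in KO-2 and -0.418 in KO-1 at 0.5 h of IL-1b, -0.493 in WT at 3 h of IL-1b and 0.404 in KO-1 at 0 h of TNF, against -0.24 to 0.369 in the other 41.

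Ribosomes are built in the nucleolus. RNA polymerase I transcribes a long precursor RNA, box C/D and box H/ACA small nucleolar ribonucleoproteins methylate and pseudouridylate it, and separate sets of factors trim and fold it into the small and the large subunit. Growth signals raise this output in fibroblasts, and Myc, an early response gene that binds DNA with its partner Max, is known to activate many of the genes involved. Cells without functional p53 lack the p53-dependent arrest that defective ribosome assembly can trigger.

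The DNA sequence that Myc and Max are known to bind best, the E-box CACGTG, reads the same on both strands and was searched for in RefSeq promoter windows of 300 bases on build GRCm38.p6. Windows were found for 33 of the 39 genes. The E-box was present in 8 of them (24.2%), namely Wdr43, Tsr1, Nop2, Utp18, Utp20, Ltv1, Mybbp1a and Pes1, against 11.7% of 10340 tested genes with a window and 8.09% of all 27025 genes with one. The related word CACGCG, searched on both strands and not overlapping CACGTG, was in 9 of 33 (27.3%) against 20.0% of tested genes. TATAAA was in 6.06% of the 33 against 8.93%, and CCAAT in 42.4% against 42.8%. The windows of the 4 E-box genes with the largest mean change at 3 h are shown over 180 bases around the start site, 5′ to 3′ on the strand of the gene, with the E-box in capitals.
Wdr43 (chr17:71616065-71616244, plus strand): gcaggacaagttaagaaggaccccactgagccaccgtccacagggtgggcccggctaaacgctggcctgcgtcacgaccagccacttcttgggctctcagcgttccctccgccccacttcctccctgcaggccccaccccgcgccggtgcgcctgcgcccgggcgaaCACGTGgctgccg
Tsr1 (chr11:74897930-74898109, plus strand): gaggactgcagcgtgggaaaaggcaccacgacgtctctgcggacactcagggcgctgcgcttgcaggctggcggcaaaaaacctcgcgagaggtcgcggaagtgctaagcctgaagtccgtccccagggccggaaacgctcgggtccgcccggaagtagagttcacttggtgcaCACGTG
Nop2 (chr6:125131733-125131912, plus strand): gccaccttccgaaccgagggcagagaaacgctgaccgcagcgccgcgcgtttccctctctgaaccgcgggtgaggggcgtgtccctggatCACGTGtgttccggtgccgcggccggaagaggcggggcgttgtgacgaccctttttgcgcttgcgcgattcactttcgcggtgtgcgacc
Utp18 (chr11:93885737-93885916, minus strand): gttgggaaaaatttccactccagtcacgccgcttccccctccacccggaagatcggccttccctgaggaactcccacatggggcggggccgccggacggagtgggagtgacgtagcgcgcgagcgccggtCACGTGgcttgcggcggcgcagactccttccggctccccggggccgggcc
The first base of the E-box lay 17 bases after the annotated start in Wdr43 and 24 bases after it in Tsr1, and 60 and 20 bases before it in Nop2 and Utp18. Among the 33 genes, the 8 with an E-box had a median log2 change at 3 h of 0.48 (range 0.35 to 0.84) in p53KO cells, and the 25 without one had a median of 0.59 (range 0.03 to 0.85). A match is only a run of letters in this window, and no binding was measured.

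**Figure D1:**
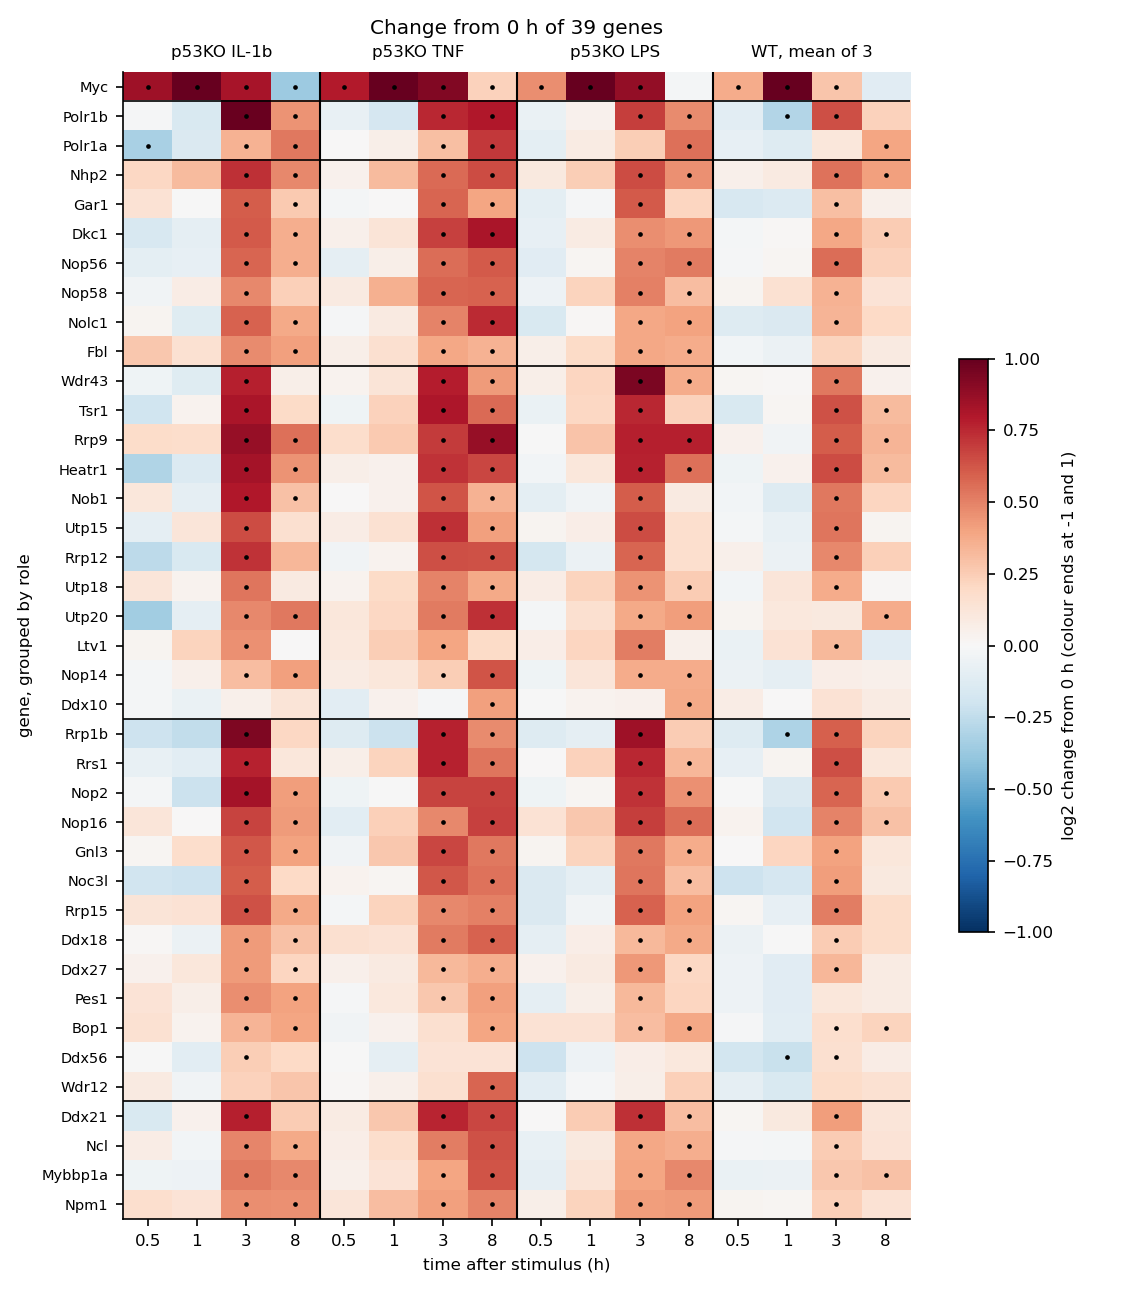
Log2 change from 0 h of the 39 genes (rows, grouped by role) in p53KO cells for each stimulus and time (columns), with the mean change over the 3 stimuli in WT beside it. Dots mark an adjusted p under 0.05 and colours end at a log2 change of 1 in either direction. At 0.5 and 1 h Myc carries dots in all 4 panels, Polr1a at 0.5 h of IL-1b, and Polr1b, Rrp1b and Ddx56 in WT at 1 h. At 3 h 37, 35 and 35 genes carry dots after IL-1b, TNF and LPS.

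Myc peaked at 1 h, before most of the other genes moved. Myc (ENSMUSG00000022346, mm9 chromosome 15, 61816946 to 61821929, plus strand) drives growth and the synthesis of ribosome parts. Values are listed in the order 0, 0.5, 1, 3 and 8 h here and below, as CPM scaled with edgeR's TMM factors. After IL-1b, Myc stood at 114, 194, 409, 188 and 90.9 CPM in KO-1, 106, 202, 405, 202 and 80.8 in KO-2 and 139, 179, 330.3, 149 and 115 in WT. With TNF, Myc was measured at 118, 189.6, 360.4, 210.5 and 143 CPM in KO-1, 106, 197, 355, 215 and 118 in KO-2 and 140.0, 193, 314, 184 and 151 in WT. With LPS, Myc was measured at 116, 156, 294, 204 and 106 CPM in KO-1, 110.0, 155, 326, 210.1 and 116 in KO-2 and 139.9, 169, 311, 176 and 125 in WT. In both p53KO replicates and in WT, the 1 h library was the highest of each series and the 3 h library lay above the 0 h library. WT began higher, and the ranges at 0 h did not overlap between WT (139 to 140.0 CPM) and p53KO (106 to 118 CPM).

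A change was called where the adjusted p was under 0.05 (edgeR's quasi-likelihood test, Benjamini-Hochberg over 13851 genes). In p53KO cells, Myc rose after IL-1b by 0.84 on the log2 scale at 0.5 h (SE 0.08, adjusted p = 5.71e-08), by 1.88 at 1 h (SE 0.08, 2.12e-15) and by 0.82 at 3 h (1.24e-08). At 8 h of IL-1b it was below its start, at -0.36 (SE 0.08, adjusted p = 0.00246). After TNF it rose by 0.79, 1.68 and 0.92 at 0.5, 1 and 3 h (adjusted p = 3.6e-07, 4.01e-14 and 2.98e-09) and was still 0.23 above its start at 8 h (adjusted p = 0.0399). After LPS it rose by 0.46, 1.46 and 0.88 (adjusted p = 0.00176, 5.14e-13 and 2.8e-09), and its 8 h value of -0.02 was not called (adjusted p = 0.881). Of the 0.5 h calls, the one after LPS was lost without the KO-2 library at 0 h (adjusted p = 0.0899). At 8 h, the IL-1b call was lost without the KO-2 library at 8 h (adjusted p = 0.0564), and the TNF call was lost without KO-1 at 8 h or without KO-2 at 0 h (adjusted p = 0.64 and 0.319).

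**Figure D2:**
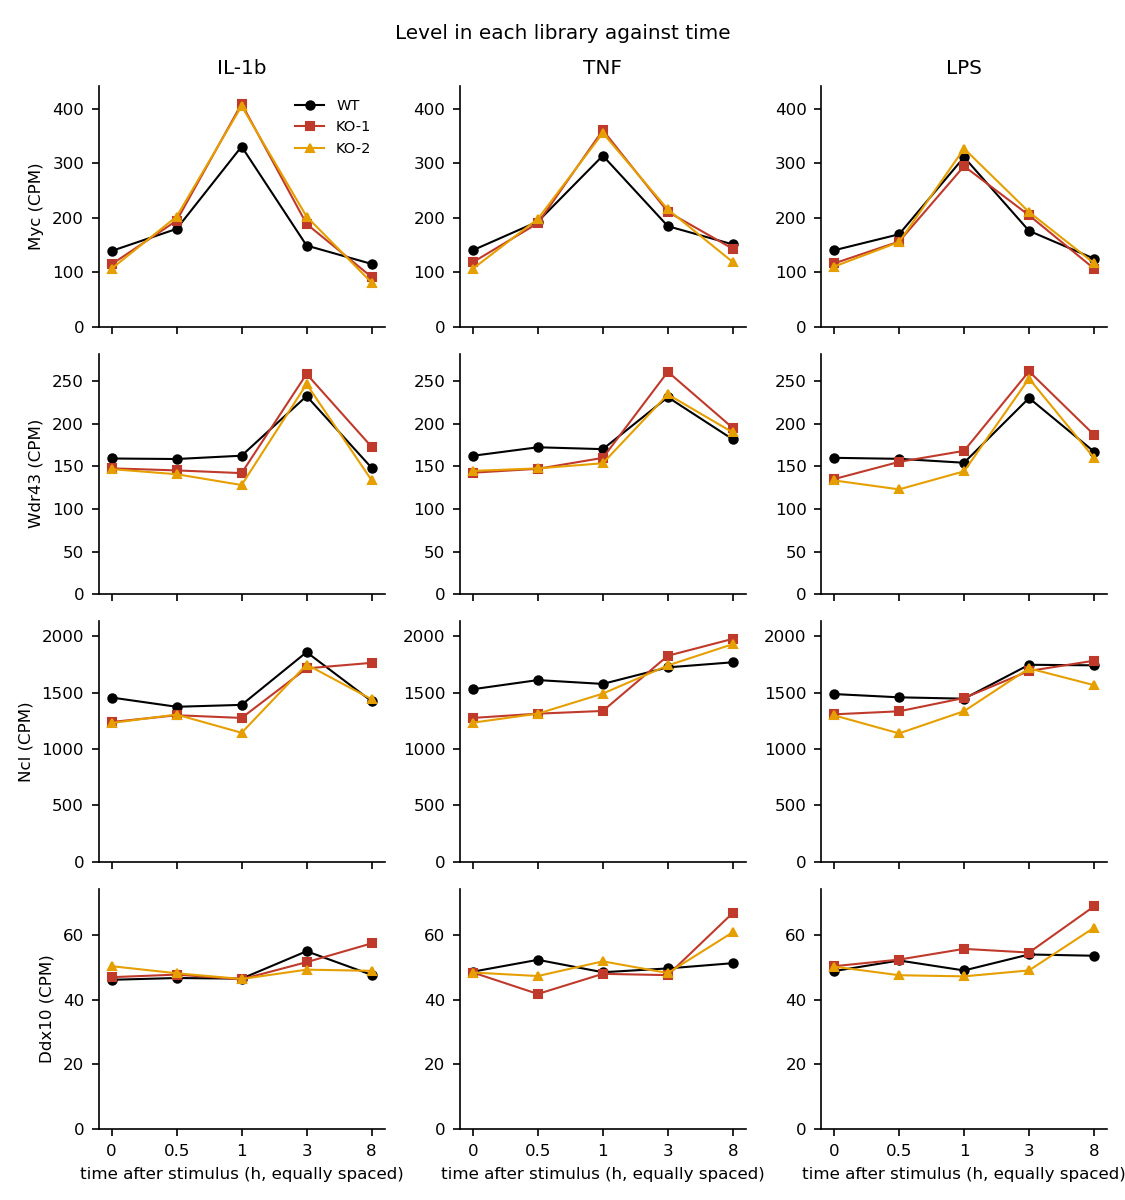
TMM-scaled CPM of Myc, Wdr43, Ncl and Ddx10 in every library (points) at 0, 0.5, 1, 3 and 8 h after IL-1b, TNF or LPS, with lines joining the libraries of KO-1, KO-2 and WT. Myc is highest at 1 h, Wdr43 and Ncl are raised at 3 h, and Ddx10 stays between 41.7 and 68.8 CPM.

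At 0.5 and 1 h hardly any other gene of the list was called in a single stimulus. At 0.5 h Myc was the 1 gene called higher after each stimulus, where 2.64%, 0.606% and 0.433% of all tested genes were called higher after IL-1b, TNF and LPS. Polr1a fell by 0.32 at 0.5 h of IL-1b (SE 0.10, adjusted p = 0.0466), where 4.76% of all genes were called lower (0.144% and 0.0939% after TNF and LPS). The p53KO libraries at this time had length trends of -0.418 and -0.603. That call was lost with each library's trend on length and GC content removed (-0.07, adjusted p = 0.74), with DESeq2 (adjusted p = 0.0637) and without any 1 of the 4 libraries (adjusted p = 0.0519 to 0.405). At 1 h Myc was again the 1 gene called, against 2.78%, 3.05% and 2.79% of all genes called higher and 3.16%, 2.80% and 2.52% called lower. These counts of 1 moved with the setting, to 2 after IL-1b and 6 after TNF with a replicate block, and to 3, 2 and 7 after IL-1b, TNF and LPS with the 0 h libraries of all stimuli pooled. Without the KO-2 library at 1 h of TNF, 4 genes of the list were called higher there. Averaged over the 3 stimuli, which gives the test more libraries, Myc alone was called at 0.5 h in p53KO cells (background 1.54% higher and 1.8% lower), and 10 genes were higher and 1 lower at 1 h (background 9.86% and 9.69%). The 10 were Myc, Nhp2, Rrp9, Ltv1, Npm1, Gnl3, Nop58, Ddx21, Nop16 and Tsr1, with log2 changes other than that of Myc between 0.16 (Tsr1) and 0.29 (Nhp2), and the lower one was Rrp1b at -0.18 (SE 0.06, adjusted p = 0.0332).

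At 3 h nearly the whole list had risen in p53KO cells. After IL-1b 37 of 39 genes were called higher, after TNF 35 and after LPS 35, and none was lower in edgeR's test, with or without the adjustment. Of all tested genes, 21.0%, 18.4% and 21.9% were called higher and 21.7%, 17.6% and 22.1% lower in the same comparisons. The median log2 change of the 39 was 0.60, 0.56 and 0.51, and that of all genes was -0.02, -0.01 and -0.02. Called after all 3 stimuli were 34 genes. Wdr12 and Ddx10 were called after none, Ddx56 after IL-1b only, and Polr1a and Bop1 after 2 stimuli each. In 35 of the 39 genes all 6 p53KO libraries at 3 h lay above all 6 at 0 h, as they did in 17.6% of all tested genes, and the exceptions were Ddx10, Wdr12, Ddx56 and Npm1. The summed share of gene counts taken by the 38 genes other than Myc was 0.599 to 0.628% in p53KO libraries at 0 h, 0.737 to 0.795% at 3 h and 0.704 to 0.870% at 8 h.

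Both subunits of RNA polymerase I, the enzyme that transcribes the ribosomal RNA precursor, rose at 3 h after at least 2 stimuli. Polr1b (ENSMUSG00000027395, mm9 chromosome 2, 128926731 to 128952330, plus strand), its second largest subunit, had the larger mean change, 0.81. Mean changes here and below are mean log2 changes from 0 h over the 3 stimuli at 3 h in p53KO cells, and values in parentheses after a gene are log2 changes. After IL-1b, Polr1b stood at 44.9, 44.6, 43.5, 86.9 and 65.7 CPM in KO-1, 44.7, 44.4, 36.9, 90.98 and 56.6 in KO-2 and 51.2, 42.8, 39.05, 75.6 and 48.6 in WT. With TNF, Polr1b was measured at 48.6, 47.6, 41.3, 73.4 and 82.2 CPM in KO-1, 46.2, 43.2, 43.1, 87.1 and 83.5 in KO-2 and 49, 47.2, 45.4, 81.5 and 71.6 in WT. With LPS, Polr1b was measured at 45.4, 48.4, 52.3, 71.7 and 64.4 CPM in KO-1, 45.3, 37.9, 41.2, 74.4 and 61.4 in KO-2 and 48.6, 48.1, 37.4, 76.2 and 56.2 in WT. The 3 h libraries were above the 0 h libraries in every series, WT included, and after TNF the p53KO level was held at 8 h. The changes at 3 h were 0.99, 0.76 and 0.69 after IL-1b, TNF and LPS, and those at 8 h were 0.45, 0.80 and 0.47, all called. Polr1a, the largest subunit, followed a later course. After IL-1b, Polr1a (ENSMUSG00000049553, mm9 chromosome 6, 71859047 to 71929350, plus strand) stood at 104, 80.7, 87.5, 124 and 149.7 CPM in KO-1, 92.3, 76.2, 89.6, 126 and 133 in KO-2 and 89.01, 80.1, 85.7, 93.3 and 113 in WT. With TNF, Polr1a was measured at 107, 97.6, 92.2, 114 and 166 CPM in KO-1, 91.1, 100.5, 114, 129.8 and 157 in KO-2 and 98.4, 96.01, 95.03, 108 and 133 in WT. With LPS, Polr1a was measured at 102, 94.5, 105, 116 and 139 CPM in KO-1, 88.95, 84.02, 97.4, 109.9 and 142 in KO-2 and 95.9, 91.7, 79.2, 105 and 126 in WT. In p53KO, the 8 h libraries lay clear of the 0 h libraries and were the highest of their series. It was called at 3 h after IL-1b (0.35) and TNF (0.30), not after LPS (0.24), and at 8 h after all 3 (0.53, 0.71 and 0.55). At 3 h the IL-1b call was lost without KO-2 at 0 h (adjusted p = 0.0876) and the TNF call without KO-2 at 0 h (0.259) or at 3 h (0.213), while the LPS value was called with the length and GC trend removed (0.27, adjusted p = 0.0065) and without KO-1 at 0 h (0.35, adjusted p = 0.0263).

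All 7 genes of small nucleolar ribonucleoproteins rose at 3 h after each of the 3 stimuli. They include the methyltransferase Fbl and its partners Nop56 and Nop58, the pseudouridine synthase Dkc1 with Nhp2 and Gar1, and Nolc1, a nucleolar chaperone of these particles. Mean changes ran from 0.42 in Fbl to 0.65 in Nhp2. After IL-1b, Nhp2 (ENSMUSG00000001056, mm9 chromosome 11, 51433237 to 51437216, plus strand) stood at 53.4, 60.1, 70.5, 92.2 and 85.4 CPM in KO-1, 55.8, 66.2, 65.4, 88.8 and 66.8 in KO-2 and 64.4, 61.9, 64.9, 106 and 85.5 in WT. With TNF, Nhp2 was measured at 47.2, 53.3, 65.1, 77.4 and 77.5 CPM in KO-1, 51.99, 49.4, 58.7, 69 and 78.4 in KO-2 and 61.7, 60.8, 70.4, 79.2 and 76.6 in WT. With LPS, Nhp2 was measured at 51.4, 59.5, 61.02, 84.5 and 77.3 CPM in KO-1, 54.6, 53.9, 64.9, 82.4 and 68.5 in KO-2 and 60.5, 71.2, 63.2, 89.3 and 86.6 in WT. In Nhp2 every p53KO library at 3 and 8 h lay above every p53KO library at 0 h. Fbl (ENSMUSG00000046865, mm9 chromosome 7, 28954765 to 28964288, plus strand) had the smallest change of the 7. After IL-1b, Fbl stood at 71.9, 88.7, 88.2, 106 and 108 CPM in KO-1, 75.3, 89.1, 75.4, 97.7 and 88.1 in KO-2 and 86.1, 82.6, 83.2, 113 and 90.2 in WT. With TNF, Fbl was measured at 70.0, 80.4, 84.8, 101 and 98.4 CPM in KO-1, 76.4, 72.7, 78.5, 90.2 and 87.3 in KO-2 and 84.4, 88.2, 83.2, 89.1 and 86.7 in WT. With LPS, Fbl was measured at 72.6, 76.6, 87.3, 92.6 and 97.1 CPM in KO-1, 65.3, 66.9, 70.02, 88.1 and 81.1 in KO-2 and 78.6, 74.2, 73.7, 90.2 and 88.8 in WT. In both p53KO replicates the 3 and 8 h libraries of Fbl lay above the 0 h libraries. At 3 h the TNF call of Fbl was lost without KO-1 at 0 h (adjusted p = 0.0969) or at 3 h (0.126), and its LPS call without KO-1 at 3 h (0.0602) or KO-2 at 0 h (0.0879). For the other box C/D proteins, Nop56 ran from 147 to 161 (median 156) CPM at 0 h, 208 to 236 (median 232) at 3 h and 183 to 243 (median 224) at 8 h, and Nop58 ran from 173 to 219 (median 203) CPM at 0 h, 244 to 317 (median 283) at 3 h and 218 to 287 (median 262) at 8 h. In Nop56 the 0 h libraries lay below both later times, and in Nop58 the 8 h range met the 0 h range. Among the box H/ACA proteins, Dkc1 ran from 75.9 to 91.9 (median 84.4) CPM at 0 h, 116 to 135 (median 128) at 3 h and 100.4 to 139.7 (median 126) at 8 h, and Gar1 ran from 30.5 to 34.97 (median 31.9) CPM at 0 h, 46.05 to 52.4 (median 49.4) at 3 h and 35.5 to 46.98 (median 38.02) at 8 h. The chaperone Nolc1 ran from 152 to 175 (median 164) CPM at 0 h, 210.2 to 244 (median 232) at 3 h and 178 to 284 (median 229) at 8 h. At 8 h, 6, 7 and 6 of the 7 genes were still called after IL-1b, TNF and LPS, with Nop58 (0.23) not called after IL-1b and Gar1 (0.21) not called after LPS. Nop56, Dkc1 and Nhp2 overlap expressed genes on the other strand (Idh3b, Mpp1 and Rmnd5b), and the strand setting of the counting is not given, so their levels are uncertain.

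Of the 12 small subunit factors, 11 rose at 3 h after each stimulus, and Ddx10 did not. Wdr43, Heatr1, Utp15, Utp18 and Utp20 belong to the complex that assembles on the nascent precursor, Rrp9 binds the U3 small nucleolar RNA within it, and Nob1 makes the last cut at the end of the small subunit RNA. Wdr43 (ENSMUSG00000041057, mm9 chromosome 17, 71965555 to 72008371, plus strand) had the largest mean change, 0.84. After IL-1b, Wdr43 stood at 148, 145, 142, 259 and 173 CPM in KO-1, 147, 141, 128, 247 and 134 in KO-2 and 159, 159, 163, 233 and 148 in WT. With TNF, Wdr43 was measured at 143, 147, 160.1, 261 and 195 CPM in KO-1, 145, 148, 154, 235 and 190.0 in KO-2 and 163, 173, 170.4, 232 and 182 in WT. With LPS, Wdr43 was measured at 135, 155, 168, 262 and 187 CPM in KO-1, 134, 123, 144, 253 and 160.2 in KO-2 and 160.2, 159, 154, 230.5 and 168 in WT. In every series Wdr43 was highest at 3 h, and by 8 h of IL-1b its change from 0 h was 0.06 and was not called. Ddx10 (ENSMUSG00000053289, mm9 chromosome 9, 52906559 to 53056217, minus strand), an RNA helicase of this step, was the exception. After IL-1b, Ddx10 stood at 46.9, 47.7, 46.2, 51.5 and 57.3 CPM in KO-1, 50.3, 48.1, 46.4, 49.2 and 48.9 in KO-2 and 46.1, 46.6, 46.5, 54.9 and 47.6 in WT. With TNF, Ddx10 was measured at 48.4, 41.7, 47.9, 47.5 and 66.7 CPM in KO-1, 48.4, 47.3, 51.8, 48.2 and 60.8 in KO-2 and 48.6, 52.3, 48.4, 49.6 and 51.2 in WT. With LPS, Ddx10 was measured at 50.3, 52.3, 55.6, 54.5 and 68.8 CPM in KO-1, 50.2, 47.5, 47.2, 49 and 62.2 in KO-2 and 48.8, 52.1, 48.98, 53.9 and 53.5 in WT. The 3 h and 0 h libraries of Ddx10 overlapped. Its changes at 3 h were 0.05, -0.01 and 0.04, none called, and at 8 h it was called after TNF (0.41) and LPS (0.38).

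The other small subunit factors lay between these extremes. Tsr1, which binds the late precursor of the subunit, rose by 0.82, 0.81 and 0.75 at 3 h after IL-1b, TNF and LPS, and over the p53KO libraries it ran from 101 to 114 (median 111) CPM at 0 h, 182 to 202 (median 191) at 3 h and 118 to 164 (median 139.8) at 8 h. Rrp9 rose by 0.87, 0.70 and 0.78, and ran from 36.3 to 42.4 (median 40.7) CPM at 0 h, 60.02 to 76.5 (median 69.6) at 3 h and 55.1 to 75.1 (median 67.3) at 8 h. Heatr1 rose by 0.83, 0.72 and 0.77, and ran from 67.96 to 88.1 (median 79.9) CPM at 0 h, 120.1 to 142 (median 134) at 3 h and 96.6 to 139 (median 113) at 8 h. In these 3 genes every p53KO library at 3 h and at 8 h lay above those at 0 h. Among the remaining genes of the early complex, Utp20 ran from 93.7 to 123 (median 105) CPM at 0 h, 128 to 162 (median 148) at 3 h and 136 to 194 (median 151) at 8 h. The WD-repeat gene Utp18 ran from 51.1 to 58.6 (median 54.2) CPM at 0 h, 75.7 to 82.6 (median 76.4) at 3 h and 50.2 to 76.2 (median 66.8) at 8 h, and its neighbour in the complex, Utp15 ran from 39.5 to 47.6 (median 41.95) CPM at 0 h, 63.7 to 74.9 (median 67.6) at 3 h and 44.9 to 58.2 (median 48.7) at 8 h. Utp20 alone of these 3 lay above its 0 h range in all p53KO libraries at 8 h. The export factor Rrp12 ran from 43.8 to 53.2 (median 50.95) CPM at 0 h, 69.8 to 86.6 (median 77.4) at 3 h and 50.5 to 82.4 (median 63.3) at 8 h, and the nuclease gene Nob1 ran from 47 to 56.6 (median 49.1) CPM at 0 h, 74.9 to 88.02 (median 79.7) at 3 h and 52.9 to 67.5 (median 59.3) at 8 h. Nop14, a component of the early particle, ran from 95.3 to 102 (median 99.8) CPM at 0 h, 115 to 134 (median 121) at 3 h and 125 to 158 (median 134) at 8 h. Ltv1, which is released in a late cytoplasmic step, ran from 52.5 to 63.4 (median 60.5) CPM at 0 h, 69.3 to 87.4 (median 84.6) at 3 h and 55.1 to 68.3 (median 62.2) at 8 h. Ltv1 was called at 3 h after all 3 stimuli (0.46, 0.40 and 0.51) and at 8 h after none (0.00, 0.19 and 0.05), while Nop14 had its largest change at 8 h of TNF (0.63). The 3 h call of Nop14 after TNF (0.25) was lost without KO-1 at 0 h (adjusted p = 0.109) or at 3 h (0.0813). At 8 h, 5, 11 and 7 of the 12 were called after IL-1b, TNF and LPS. Rrp9 and Tsr1 overlap Parp3 and Srr on the other strand and are uncertain for the same reason as above.

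Among the 13 large subunit factors, 12, 10 and 11 rose at 3 h after IL-1b, TNF and LPS. Pes1, Bop1 and Wdr12 form the PeBoW complex that processes the large subunit RNA, Nop2 methylates that RNA, Rrs1 helps add the smallest ribosomal RNA, and Ddx18, Ddx27 and Ddx56 are RNA helicases. Rrp1b (ENSMUSG00000058392, mm9 chromosome 17, 32173045 to 32199810, plus strand) had the largest mean change, 0.85. After IL-1b, Rrp1b stood at 58.5, 49.4, 51.3, 105 and 76 CPM in KO-1, 56.8, 50.4, 46.1, 116 and 57.1 in KO-2 and 63.7, 48.9, 44.4, 83.4 and 60.4 in WT. With TNF, Rrp1b was measured at 60.8, 52.7, 49.2, 94.4 and 82.2 CPM in KO-1, 57.5, 55.2, 53.1, 108 and 82.3 in KO-2 and 54.4, 55.4, 47.9, 84.3 and 72.04 in WT. With LPS, Rrp1b was measured at 59.9, 54.5, 53.02, 99.02 and 72.1 CPM in KO-1, 55.8, 51.4, 55.8, 109.6 and 65.5 in KO-2 and 54.5, 53.5, 46.99, 93.2 and 69.2 in WT. Each 3 h library exceeded its 0 h library, and at 8 h the gene was called after TNF (0.48) and not after IL-1b (0.21) or LPS (0.25). The smallest mean change was that of Wdr12 (ENSMUSG00000026019, mm9 chromosome 1, 60133712 to 60155489, minus strand), at 0.15. After IL-1b, Wdr12 stood at 47.6, 49.4, 49.9, 59.7 and 63.5 CPM in KO-1, 50.04, 54.6, 45.1, 54.7 and 54.8 in KO-2 and 56.8, 52.2, 53.6, 74.02 and 61.2 in WT. With TNF, Wdr12 was measured at 49.95, 49.02, 49.3, 57.6 and 72.5 CPM in KO-1, 46.9, 48.5, 51.1, 50.5 and 72.9 in KO-2 and 57.9, 57.7, 57.2, 62.5 and 68.7 in WT. With LPS, Wdr12 was measured at 47.4, 50.2, 49.6, 51.8 and 63.4 CPM in KO-1, 49.2, 39.1, 46.2, 49.1 and 50.6 in KO-2 and 59.1, 53.5, 46.2, 61.7 and 63.9 in WT. The p53KO libraries at 3 h overlapped those at 0 h, and the gene was called in 1 of 6 comparisons at these times, 8 h of TNF (0.59). With the 0 h libraries of all stimuli pooled it was also called at 3 h of IL-1b (0.24, adjusted p = 0.0233). Its partners in PeBoW were called more often: Pes1 at 3 h after all 3 stimuli (0.46, 0.27 and 0.33) and Bop1 after IL-1b (0.34) and LPS (0.31), not TNF (0.16).

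Over the p53KO libraries, Pes1 ran from 118 to 129.7 (median 124) CPM at 0 h, 148 to 171 (median 158) at 3 h and 141 to 179 (median 158) at 8 h, and Bop1 ran from 73 to 84.97 (median 81.3) CPM at 0 h, 91.5 to 108 (median 94.7) at 3 h and 96.3 to 115 (median 105) at 8 h. Next in size after Rrp1b were Rrs1 (0.77, 0.77 and 0.75 at 3 h) and Nop2 (0.83, 0.67 and 0.73). In the p53KO libraries Rrs1 ran from 71.1 to 81.8 (median 76.03) CPM at 0 h, 117 to 134 (median 132) at 3 h and 78.1 to 116 (median 95.3) at 8 h, and Nop2 ran from 112 to 119.6 (median 117) CPM at 0 h, 180.3 to 213 (median 195) at 3 h and 137 to 191 (median 172) at 8 h. Both were clear of their 0 h range at 3 h, and only Nop2 was at 8 h. The assembly factor gene Nop16 ran from 38.8 to 44.2 (median 40.2) CPM at 0 h, 54.4 to 69.7 (median 64.9) at 3 h and 53.9 to 64.6 (median 61.5) at 8 h, and Rrp15 ran from 35.3 to 43.3 (median 39.4) CPM at 0 h, 49.8 to 66.7 (median 59.4) at 3 h and 48.1 to 60.2 (median 52) at 8 h. Noc3l, of a complex that moves the particle out of the nucleolus, ran from 38.5 to 42.2 (median 40.2) CPM at 0 h, 56.7 to 62.7 (median 61.5) at 3 h and 41.03 to 60.7 (median 52.5) at 8 h. Gnl3, also called nucleostemin, a GTP-binding protein, ran from 121 to 132 (median 127) CPM at 0 h, 179 to 209.7 (median 189) at 3 h and 154 to 182 (median 176) at 8 h. Nop16, Rrp15, Noc3l and Gnl3 were called at 3 h after all 3 stimuli, with changes of 0.48 to 0.69. Of the helicases, Ddx18 ran from 55.4 to 67.5 (median 62.4) CPM at 0 h, 77.3 to 85.05 (median 84.9) at 3 h and 72.9 to 85.99 (median 84.2) at 8 h, and Ddx27 ran from 82.9 to 86.1 (median 84.02) CPM at 0 h, 105 to 115 (median 111) at 3 h and 86.2 to 111 (median 103) at 8 h. Ddx56 differed from both, since it ran from 61.5 to 68.6 (median 66.5) CPM at 0 h, 67.7 to 82.1 (median 71.97) at 3 h and 65.7 to 77.8 (median 74.1) at 8 h, with 1 call at 3 h (0.24 after IL-1b) and none at 8 h. At 8 h, 8, 12 and 9 of the 13 were called after IL-1b, TNF and LPS. Bop1, Gnl3 and Wdr12 overlap Mroh1, Glt8d1 and Carf on the other strand.

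The 4 nucleolar genes with several roles rose at 3 h after each stimulus. Ncl (nucleolin) and Npm1 (nucleophosmin) are abundant nucleolar RNA-binding proteins, Ddx21 is an RNA helicase at ribosomal DNA and Mybbp1a binds transcription factors in the nucleolus. After IL-1b, Ddx21 (ENSMUSG00000020075, mm9 chromosome 10, 62042996 to 62065046, minus strand) stood at 307, 279, 332, 520.5 and 404 CPM in KO-1, 308, 275, 299, 532 and 327 in KO-2 and 355, 331, 369.7, 452 and 351 in WT. With TNF, Ddx21 was measured at 325, 339, 354, 531 and 499.6 CPM in KO-1, 295, 318, 392, 522 and 484 in KO-2 and 360.4, 386, 402, 478 and 415 in WT. With LPS, Ddx21 was measured at 307, 333, 384, 500.0 and 390.4 CPM in KO-1, 295, 270.3, 334, 497 and 355 in KO-2 and 350.2, 368, 370.2, 499 and 394 in WT. The 3 h library of Ddx21 was the highest of every series, and the mean change in p53KO was 0.76. Over the p53KO libraries Ncl ran from 1230.0 to 1307 (median 1257) CPM at 0 h, 1692 to 1827 (median 1728) at 3 h and 1441 to 1977 (median 1774) at 8 h. In Ncl the 3 and 8 h libraries lay clear of the 0 h libraries. The same held for Mybbp1a, which ran from 396 to 434 (median 420.2) CPM at 0 h, 536 to 598 (median 556) at 3 h and 525 to 668 (median 617) at 8 h. Npm1 (ENSMUSG00000057113, mm9 chromosome 11, 33052287 to 33063206, minus strand) had the smallest change of the 4. After IL-1b, Npm1 stood at 968, 1059, 1101, 1383 and 1405 CPM in KO-1, 1011, 1163, 1072, 1343 and 1308 in KO-2 and 1309, 1289, 1310.0, 1674 and 1438 in WT. With TNF, Npm1 was measured at 906, 1016, 1218, 1368 and 1287 CPM in KO-1, 965, 1021, 1103, 1116 and 1357 in KO-2 and 1329, 1366, 1391, 1472 and 1437 in WT. With LPS, Npm1 was measured at 1053, 1192, 1338, 1494 and 1625 CPM in KO-1, 1121, 1067, 1205, 1411 and 1290.0 in KO-2 and 1395, 1459, 1398, 1625 and 1596 in WT. The 3 h and 0 h ranges of Npm1 met in p53KO, and every WT library at 0 h lay above every p53KO library at 0 h. Mean changes at 3 h were 0.46 in Ncl, 0.43 in Mybbp1a and 0.43 in Npm1. Npm1 has near-identical copies elsewhere in the genome, and reads shared with them may be lost or split, so its level is uncertain. Its 3 h call after TNF (0.41) was lost without KO-1 at 3 h (0.25, adjusted p = 0.0892). At 8 h, 3, 4 and 4 of the 4 were called after IL-1b, TNF and LPS, and Ddx21 after IL-1b (0.25) was the exception.

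At 8 h the number of genes still called differed by stimulus, and such counts are no test of a difference between stimuli. In p53KO cells 24 of 39 genes were higher than at 0 h after IL-1b (12.5% of all tested genes), 37 after TNF (14.5%) and 28 after LPS (17.0%). Myc after IL-1b was the 1 gene called lower, where 11.8% of all genes were, against 14.1% and 17.2% after TNF and LPS. The medians were 0.36, 0.57 and 0.37. Without the KO-1 library at 8 h the count fell to 7 after IL-1b and to 14 after LPS, and without the KO-2 library at 0 h it was 14 after IL-1b, while after TNF it stayed between 32 and 37 in all alternatives run. Called after all 3 stimuli were 21 genes, after 2 stimuli 10, after 1 stimulus 6 (Rrp1b, Wdr12, Rrp12, Tsr1, Utp15 and Myc), and Ddx56 and Ltv1 after none. All 6 p53KO libraries at 8 h lay above all 6 at 0 h in 26 genes, against 11.0% of all tested genes. Called at both 3 and 8 h after all 3 stimuli were 19 genes.

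Compared directly with 3 h, the 8 h level was lower in 20 genes and higher in none after IL-1b (none at an unadjusted p either, in edgeR's test), where 17.0% of all genes were lower and 18.5% higher. After TNF 5 genes were lower (Myc, Utp15, Wdr43, Nob1 and Rrp1b) and 5 higher (Polr1a, Nop14, Ddx10, Wdr12 and Bop1), with a background of 12.6% and 12.3%. For a list of this size, both counts after TNF lay close to the background. After LPS 13 were lower and 2 higher (Polr1a by 0.31 and Ddx10 by 0.34), with a background of 18% and 20.2%. The count after IL-1b was 11 without KO-2 at 8 h. The 5 lower genes after TNF became 2 without KO-1 at 3 h, 1 without KO-1 at 8 h, 3 without KO-2 at 3 h and 1 without KO-2 at 8 h. Myc fell most, by 1.18, 0.69 and 0.89 on the log2 scale after IL-1b, TNF and LPS (adjusted p = 4.3e-11, 7.37e-07 and 3.11e-09 in edgeR's test). Next, as a mean over the 3 stimuli, were Wdr43 at -0.55 and Rrp1b at -0.54. At the other end were Polr1a at 0.30, Ddx10 at 0.28 and Wdr12 at 0.22.

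**Figure D3:**
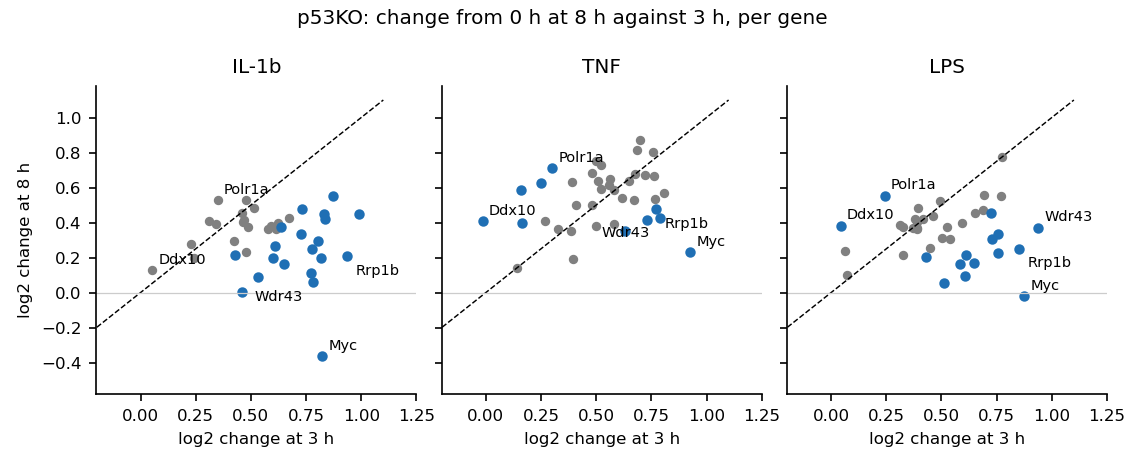
Log2 change from 0 h at 3 h (horizontal axis) and at 8 h (vertical axis) in p53KO cells, 1 point per gene and 1 panel per stimulus, with the diagonal marking equal change. Blue points differed between 8 and 3 h at an adjusted p under 0.05. After TNF 22 of 39 genes lie above the diagonal, after LPS 12 and after IL-1b 6.

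Differences between the stimuli were called for Myc alone of the list with the filter on low counts, while with no filter 6 genes were called for IL-1b against TNF and 2 for LPS against IL-1b. Each test asked whether the changes from 0 h over 0.5, 1, 3 and 8 h differed between 2 stimuli, and 6.91% of all tested genes were called for LPS against IL-1b, 5.14% for LPS against TNF and 1.42% for IL-1b against TNF. Myc was called for LPS against IL-1b (adjusted p = 8.2e-05 in edgeR's test), with differences of -0.38, -0.42, 0.05 and 0.34 at 0.5, 1, 3 and 8 h. It was also called for IL-1b against TNF (adjusted p = 0.00172), with differences of 0.05, 0.21, -0.10 and -0.59. The early changes were smaller with LPS than with IL-1b, and the 8 h change was lowest with IL-1b, while the test covers the 4 times together. In edgeR's test no gene of the list was called for LPS against TNF, where 3 had an unadjusted p under 0.05 and none was called with DESeq2's size factors. For IL-1b against TNF a further gene was called without KO-1 at 8 h of IL-1b or without KO-2 at 1 h of TNF, 2 genes in all. At 8 h the change was larger after TNF than after IL-1b in 37 of 39 genes and larger after TNF than after LPS in 38, against 10 and 21 at 3 h. These are directions of estimates, and the difference between stimuli at 8 h alone was not tested for any gene. The directions were not counted over all tested genes, so these counts do not show whether the shift is particular to the list.

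In WT cells, with 1 library per group and the 3 stimuli averaged, most of the list also rose at 3 h. The main tests here use the spread between the p53KO pairs and hold no spread between WT libraries. At 3 h 32 of 39 genes were called higher and none lower (none at an unadjusted p either, in edgeR's test), where 22.3% of all tested genes were higher, and the median change was 0.37. In the single series, 38 genes were above 0 h at 3 h of IL-1b, 39 of TNF and 39 of LPS. All 3 WT libraries at 3 h lay above all 3 at 0 h in 35 genes, against 23.7% of all tested genes. The 7 genes not called were Polr1a, Fbl (0.22, adjusted p = 0.0544), Utp20, Nop14, Ddx10, Wdr12 and Pes1. At 0.5 h Myc was the 1 gene called (0.37, adjusted p = 0.00187), where 0.621% of all genes were higher and 0.0794% lower. At 1 h Myc was higher (1.19, adjusted p = 2.63e-13), while Rrp1b (-0.31), Polr1b (-0.29) and Ddx56 (-0.22) were lower, with 6.92% and 7.41% of all genes called. At 8 h 11 genes were higher (background 13.6%), with a median of 0.16, and Myc was not called (-0.11, adjusted p = 0.244). Without the WT TNF or the WT LPS series, the means over the other stimuli gave 6 genes called at 8 h, and with each library's trend on length and GC content removed they gave 18. The 0.5 h call of Myc was lost without the WT TNF series (adjusted p = 0.0895). Averaged in the same way, p53KO cells had 38 genes higher at 3 h (30.4% of all genes) and 37 at 8 h (25.3%), with 2 libraries per group where WT had 1.

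The genotypes were compared by the difference between these mean changes, p53KO minus WT, again with the spread of the p53KO pairs alone. In 8 cases the difference was called, and all 8 were positive, while the share of all genes called lower is not given here. Myc rose further in p53KO cells at 1 h, by 1.67 against 1.19 (difference 0.48, SE 0.08, adjusted p = 0.00111 in edgeR's test). At 3 h its change was 0.87 against 0.27 (difference 0.60, SE 0.08, adjusted p = 3.91e-05). The p53KO libraries were lower at 0 h, with 106 to 118 CPM against 139 to 140.0 in WT, and higher at 3 h, with 188 to 215 against 149 to 184. At 8 h each p53KO library was again below the WT library of its stimulus, with 80.8 to 143 CPM against 115 to 151. At 3 h the difference was also called for Ddx21 (0.33, adjusted p = 0.026), Gar1 (0.30, 0.0441) and Nop14 (0.25, 0.0359). Of all tested genes, 0.209% were called higher at 1 h, 6.65% at 3 h and 2.59% at 8 h, and at 0.5 h 0.0217% and none of the list in edgeR's test, with Myc alone at an unadjusted p under 0.05 (0.33). At 8 h it was called for Nop14 (0.42, adjusted p = 0.00173), Rrp9 (0.39, 0.0378) and Ncl (0.32, 0.0356).

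For the genes called, levels in WT and p53KO overlapped to different extents. In p53KO cells Nop14 ran from 95.3 to 102 (median 99.8) CPM at 0 h, 115 to 134 (median 121) at 3 h and 125 to 158 (median 134) at 8 h, while WT held 104 to 105 CPM at 0 h, 106 to 112 at 3 h and 103 to 117 at 8 h. Its WT libraries at 3 and 8 h thus lay below every p53KO library at the same time. WT libraries of Ddx21 held 350.2 to 360.4 CPM at 0 h and 452 to 499 at 3 h, and those of Gar1 33.7 to 45.7 CPM at 0 h and 46.5 to 50.5 at 3 h. Rrp9, called at 8 h, stood in WT at 46.6 to 54.9 CPM at 0 h and at 55.7, 67.5 and 68.3 CPM at 8 h of IL-1b, LPS and TNF, inside the p53KO range of 55.1 to 75.1 CPM. Ncl, also called at 8 h, stood in WT at 1456 to 1530.0 CPM at 0 h and at 1424, 1742 and 1769 CPM at 8 h of IL-1b, LPS and TNF, against 1441 to 1977 CPM in p53KO. For Rrp9 and Ncl the genotypes thus overlapped at 8 h and not at 0 h, where every WT library lay above every p53KO library. At 3 h the median difference over the 39 genes was 0.16, with 35 positive, the exceptions being Nop56, Ddx10, Wdr12 and Ddx56. Over all 13851 genes the median was 0.00 with 6816 positive. At 8 h it was 0.24 over the 39 genes with 39 positive, and 29 had an unadjusted p under 0.05, while over all 13851 genes it was 0.00 with 6963 positive, and 2516 had an unadjusted p under 0.05 in either direction. The 3 h call of Myc held with each library left out in turn, and the counts moved. The 4 genes called at 3 h became 2 without the WT and p53KO libraries of any 1 stimulus, and also without KO-1 at 3 h of IL-1b or of TNF, or KO-2 at 0 h of IL-1b or of LPS. The 3 genes called at 8 h became 1 without the libraries of any 1 stimulus, without KO-1 at 8 h of any stimulus, without KO-1 at 0 h of LPS, or without KO-2 at 0 h of IL-1b or of LPS, and 8 without KO-2 at 8 h of IL-1b. At 1 h the call of Myc was lost without the IL-1b libraries (0.41, adjusted p = 0.0864), and 2 genes were called without KO-2 at 1 h of TNF. The differences at 1, 3 and 8 h all rest on 1 WT replicate, so genotype and culture cannot be told apart.

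**Figure D4:**
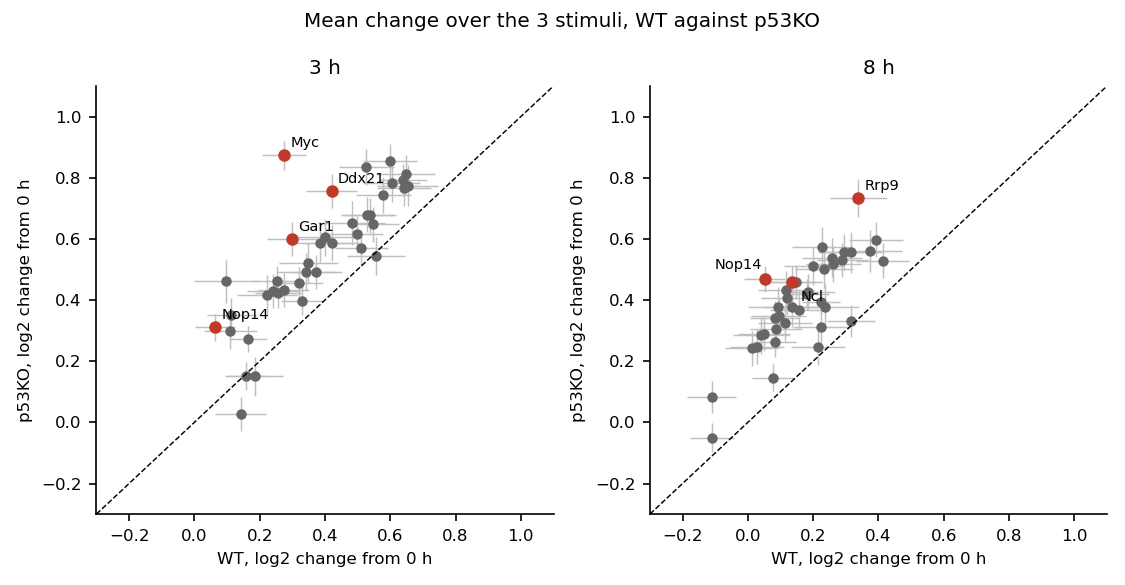
Mean log2 change from 0 h over the 3 stimuli in WT (horizontal axis) and p53KO (vertical axis) at 3 h and 8 h, 1 point per gene, with bars of 1 SE and the diagonal marking equal change. Red points differed between genotypes at an adjusted p under 0.05. At 3 h 35 of 39 genes lie above the diagonal and at 8 h all 39 do.

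Levels over all times were compared on counts summed by replicate, 1 WT sum against 2 p53KO sums, so the test had 1 residual degree of freedom. In edgeR's test 7 of 39 genes were lower in p53KO and none was higher (Polr1a, 0.13, at an unadjusted p under 0.05), against 19.2% and 21.1% of 12918 genes, so the share called lower is close to the background. The 7 ran from Nop16 (-0.37, adjusted p = 0.00454) through Npm1, Tsr1, Nop58, Bop1 and Nhp2 to Wdr12 (-0.18, adjusted p = 0.0495). A fit on single libraries, which treats libraries of 1 replicate as independent, called 17 lower, and 8970 of all genes in either direction. Before stimulation, all 3 WT libraries lay above all 6 p53KO libraries in 23 of 39 genes and below them in none, where 18.3% of all genes lay above and 18.5% below.

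Among further subunit factors, RNA polymerase I genes and genes of small nucleolar ribonucleoproteins, all genes called at 3 h in p53KO cells were higher except Taf1b. The share called differed by list, against 21.0%, 18.4% and 21.9% of all tested genes after IL-1b, TNF and LPS. Of 44 further large subunit factors, 36, 31 and 33 rose after IL-1b, TNF and LPS, and of 41 further small subunit factors 23, 19 and 24 rose. Surf6 (mean change 0.87), the giant ATPase Mdn1 (0.96), Pwp2 (0.94) and Rcl1 (0.85) had the largest changes among those called after all 3 stimuli, and Cebpz (0.32), Nol8 (0.35), Nol6 (0.25) and Pno1 (0.33) the smallest. Of 13 further RNA polymerase I genes 10, 8 and 8 rose, among them the initiation factor gene Taf1c (0.78), Twistnb (0.70), Rrn3 (0.29) and Polr1c (0.32), while Taf1b fell after IL-1b (-0.46) and TNF (-0.54). Of 9 further genes of small nucleolar ribonucleoproteins 8, 3 and 4 rose, with Naf1 at 0.61, Snu13 at 0.51 and Nufip1 at 0.37. At 8 h, 18, 34 and 21 of the 44 and 15, 26 and 21 of the 41 were called higher. Of all tested genes, 12.5%, 14.5% and 17.0% were. The counts of both lists were largest after TNF, and such counts are no test of a difference between stimuli.

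Of 12 exosome genes, whose products trim RNA ends, 3, 2 and 3 rose at 3 h, a share close to the 21.0%, 18.4% and 21.9% of all tested genes called higher. Mphosph6 stood at 0.49 and Dis3 at 0.34, and Exosc4 fell after LPS (-0.44). Of 13 genes of RNA polymerase III, which makes tRNA and the smallest ribosomal RNA, 5, 2 and 4 rose and 2, 3 and 4 fell. Of all tested genes, 21.7%, 17.6% and 22.1% were called lower in the same comparisons. In a list of 13, the counts that fell and those that rose after TNF and LPS lay close to the shares of all genes. Polr3d (0.72) and Polr3e (0.67) rose, while Polr3gl (-0.77) and the repressor gene Maf1 (-0.58) fell. Of 78 cytosolic ribosomal protein genes 53, 24 and 43 rose at 3 h and 1, 0 and 1 at 8 h. At 8 h 12.5%, 14.5% and 17.0% of all tested genes were called higher, so this list lay below the background there. The 3 h changes of these ribosomal protein genes were small. Rplp1 at 0.36 and Rpl41 at 0.39 were the largest among those called after all 3, and Rpl23 (0.21) the smallest. At 0.5 h of IL-1b the p53KO libraries had length trends of -0.418 and -0.603. There 48 of the 78 were called higher, against a background of 2.64%. These short genes share reads with pseudogenes, so their counts are uncertain.

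Genes around Myc moved in both directions. Of 12 genes of the Myc and Max network 6, 3 and 6 rose and 4, 3 and 4 fell at 3 h after IL-1b, TNF and LPS. Of all tested genes, 21.0%, 18.4% and 21.9% were called higher and 21.7%, 17.6% and 22.1% lower. In a list of 12, the counts that fell and the count that rose after TNF lay close to these shares. Zbtb17, the Myc partner Miz-1, rose by 0.84 on average at 3 h and the paralog Mycl by 0.75, while Mxi1 and Mxd3, which compete with Myc for Max, fell by 0.91 and 1.01. By 8 h Mxi1 was called higher than at 0 h after IL-1b (0.73) and LPS (0.62), and was not called after TNF (0.30). At 8 h Mxd3 was called lower after TNF (-0.83) and LPS (-0.73), and was not called after IL-1b (-0.18). Max itself rose by 0.38, 0.36 and 0.41 after IL-1b, TNF and LPS. Of 34 further genes known as Myc targets outside ribosome assembly 18, 14 and 16 rose, and 2 fell after LPS. Hk2, of glycolysis, had a mean change of 1.34 and the lactate transporter gene Slc16a1 0.78, while Hspd1 (0.24) and Eif2s1 (0.39) were the smallest among those called after all 3. At 8 h, 17, 22 and 17 of the 34 were higher, against 12.5%, 14.5% and 17.0% of all tested genes.

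**Figure D5:**
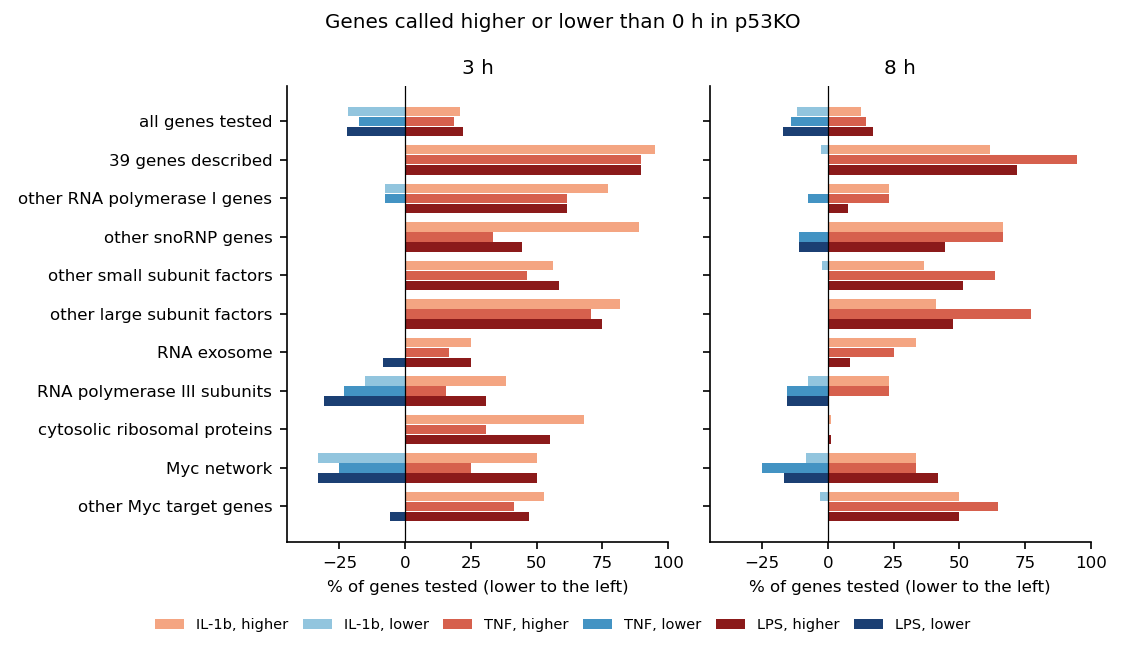
Percent of genes called higher and lower in p53KO cells at 3 and 8 h after IL-1b, TNF and LPS, for the 39 genes, each further list and all tested genes. The 39 genes have 37, 35 and 35 calls at 3 h and 24, 37 and 28 at 8 h, and the ribosomal proteins have 53, 24 and 43 of 78 at 3 h and 1, 0 and 1 at 8 h.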

How the data were processed

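Raw read counts per Ensembl gene were deposited by the authors as 1 table of 45 libraries. Per the submitters' processing notes, STAR, featureCounts, DESeq and build mm9 were used, and versions, the annotation and the strand setting are not given in the sources used here. Per the labels' protocols the kit keeps strand and reads are paired-end. Symbols came from a GENCODE M21 table, which named 32919 of 37991 identifiers. Categories that name no gene held 24.65% of all counts and were left out of library sizes and tests. Reads placed at more than 1 position made up 18.8 to 23.6%, which bears on genes with near-identical copies.

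Columns were assigned to samples by their names, and the title that gives a p53KO library at 8 h of IL-1b the number 21 was read as replicate 2. The 13851 genes at 1 CPM or more in 2 or more libraries were fitted in edgeR 4.0.16 (R 4.3.3, quasi-likelihood) with 30 group means and TMM scaling (factors 0.8886 to 1.072, biological coefficient of variation 0.0679, 15 residual degrees of freedom), so that WT groups borrow the spread of the p53KO pairs. Standard errors are the absolute log2 change over the root of F. P-values were adjusted over all tested genes of a comparison. Genotype levels were tested on counts summed by replicate. The fit was tested on simulated data. DESeq2 1.42.0, other scalings, filters and a replicate block were alternatives.

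The members and the further lists were chosen with earlier results of these data known. Values in every library are given for Myc and, per role, for the gene with the largest and the smallest mean change at 3 h in p53KO, together with ranges for the others. Of each further list, the 2 largest and 2 smallest mean changes among genes called after all 3 stimuli are named. One gene this rule picks is not reported here. Max, Taf1b, Exosc4 and the level difference of Polr1a were added after their values were seen.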

Additional observations from a re-analysis of the deposited data

Results flagged for a closer look

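Differences between genotypes or stimuli that passed their own test are gathered here as values, with no explanation weighed. The change of Myc from 0 h was larger in p53KO than in WT by 0.48 at 1 h and by 0.60 at 3 h on the log2 scale. At 3 h the same difference was 0.33 for Ddx21, 0.30 for Gar1 and 0.25 for Nop14, and at 8 h it was 0.42 for Nop14, 0.39 for Rrp9 and 0.32 for Ncl. Within p53KO cells, the LPS change of Myc minus its IL-1b change was -0.42 at 1 h, and its IL-1b change minus its TNF change was -0.59 at 8 h, where the test covered all 4 times together.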

How the results depend on the processing

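Single-gene results kept their side of the threshold in 1130 of 1162 alternative values and none reversed, and counts of called genes stayed within 1.5 times in 314 of 369. At 3 h the counts ran from 34 to 38 (IL-1b), 31 to 36 (TNF) and 32 to 36 (LPS) over 13 alternatives each, and at 8 h from 7 to 30, 32 to 37 and 14 to 34. Some counts that moved were small and some rested on single libraries. Others, such as those in WT at 8 h and for the genotype level, moved with the trend removed or with the fit. The cause was not tested.

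With no filter, 2 genes were called higher at 1 h of IL-1b, 5 at 1 h of TNF, 2 for LPS against IL-1b, 6 for IL-1b against TNF, 2 in WT at 1 h and 8 for the genotype difference at 8 h. With a filter of 5 CPM, 2 were called at 1 h of IL-1b. With the 0 h libraries pooled, 4 were called at 0.5 h and 3 at 1 h of IL-1b, 2 at 1 h of TNF and 7 at 1 h of LPS. With the length and GC trend removed, an alternative added after seeing the data for these results, 18 were called in WT at 8 h and 5 for the genotype difference at 8 h. DESeq2 called 2 at 1 h of TNF. WT libraries alone gave 0 at 0.5 h and 2 at 1 h. A fit on libraries for the genotype level called 17 lower.

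Leaving out 1 library (for WT, 1 stimulus series, both also added after seeing the data for the genotype difference) gave 34 to 37, 31 to 33 and 32 to 36 at 3 h, 7 to 29, 32 to 37 and 14 to 28 at 8 h, and 0 to 1 at 0.5 h of LPS and 1 to 4 at 1 h of TNF. For 8 h against 3 h the counts of lower genes were 11 to 26 after IL-1b, 1 to 3 after TNF and 9 to 14 after LPS, and IL-1b against TNF gave 1 to 2. In WT they were 0 to 1, 1, 26 to 33 and 6 to 12 at 0.5, 1, 3 and 8 h, and for the genotype difference 0 to 2, 2 to 5 and 1 to 8 at 1, 3 and 8 h. Where a group kept 1 library, it was assumed to vary like the others.

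The replicate numbers KO-1 and KO-2 are shared by the groups. Deviations from the group means correlated across 9632 genes with a median r of 0.191 over 105 pairs of groups (-0.169 to 0.504, with 73 above 0.1). Part of the spread was thus shared by replicate number. The main fit held no term for the replicate number and did not treat the numbers as pairs, so this shared part stayed in its spread. With the replicate block the counts were 2 at 0.5 h and 2 at 1 h of IL-1b, 6 at 1 h of TNF and 2 for IL-1b against TNF. Low counts limit none of the 39 genes, all above 30 CPM at 0 h.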
